A study of Mus musculus with 4 samples.

Results

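The 10 genes described here are Elane, Mpo, Prtn3, Ctsg, Ms4a3, Cebpe, Gfi1, Cebpa, Cebpb and Spi1, chosen by name for their place in granulocyte formation. All 10 were found by symbol among the 32285 genes that each of the 4 count matrices lists. Single-cell RNA-Seq had been run on 1 library per tissue and treatment, from 20-week-old C57BL/6J male mice at week 2. The control mice carried a placebo and the GC mice received the glucocorticoid (GC) prednisolone at 6.25 mg/kg/d. Trabecular bone and fracture callus were each taken under both treatments. The paper describes bone loss and fracture as separate models, and both callus groups had a fracture in addition to placebo or prednisolone. Prednisolone came from an implanted slow-release pellet by the labels of every library, but by daily injection in the fracture model according to the paper. The marrow was flushed and the crushed bone was digested. Cells of the blood lineages were found in both tissues, and the number of mice behind a library is not given in the sources used here. With no replicate library there was no test between treatments or tissues, and every interval below is a 95% interval for counting error only.

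Neutrophils carry their first set of granules, the azurophil granules, from the promyelocyte stage onwards, and the genes for the granule proteins are transcribed only in a short window of differentiation. Elane encodes neutrophil elastase, Prtn3 proteinase 3 and Ctsg cathepsin G, all serine proteases of these granules, and Mpo encodes myeloperoxidase, the enzyme that makes hypochlorous acid. Ms4a3 encodes a membrane protein whose expression marks granulocyte and monocyte progenitors, and it is counted below with the azurophil genes. Spi1 (PU.1) and Cebpa are the transcription factors that open the myeloid program, Gfi1 is a repressor that favors the granulocyte over the monocyte fate, Cebpe is needed for the later, specific granules, and Cebpb is the C/EBP factor of mature and stimulated myeloid cells. Glucocorticoids are known to raise blood neutrophil numbers, and Cebpb has long been studied as a partner of the glucocorticoid receptor.

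The promoters are shown because the azurophil genes were detected together in the same cells. RefSeq sequences on GRCm38.p6 run from 250 bases before to 50 bases after the RefSeq start, and 8 of the 10 genes have one in the table used. Cebpe and Spi1 have none there. Capitals mark GAGGAA, a core sequence of PU.1 sites, and TTNNGNAA, a core sequence of C/EBP sites, each read on both strands, where N is any base. The sequences are 5′ to 3′ on the strand of the gene.
Elane, chr10:79886062-79886361, plus strand: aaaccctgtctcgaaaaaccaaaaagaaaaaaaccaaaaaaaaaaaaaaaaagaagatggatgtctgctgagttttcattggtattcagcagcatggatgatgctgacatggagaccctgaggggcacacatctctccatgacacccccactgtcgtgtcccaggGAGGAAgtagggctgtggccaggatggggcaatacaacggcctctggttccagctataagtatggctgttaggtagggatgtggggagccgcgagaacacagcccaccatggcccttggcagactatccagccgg
Prtn3, chr10:79879417-79879716, plus strand: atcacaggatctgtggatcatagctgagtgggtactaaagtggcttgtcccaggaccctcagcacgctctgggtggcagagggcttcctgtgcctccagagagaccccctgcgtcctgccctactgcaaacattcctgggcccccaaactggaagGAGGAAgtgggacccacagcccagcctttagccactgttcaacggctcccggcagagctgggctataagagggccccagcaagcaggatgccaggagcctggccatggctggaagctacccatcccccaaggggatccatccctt
Mpo, chr11:87793534-87793833, plus strand: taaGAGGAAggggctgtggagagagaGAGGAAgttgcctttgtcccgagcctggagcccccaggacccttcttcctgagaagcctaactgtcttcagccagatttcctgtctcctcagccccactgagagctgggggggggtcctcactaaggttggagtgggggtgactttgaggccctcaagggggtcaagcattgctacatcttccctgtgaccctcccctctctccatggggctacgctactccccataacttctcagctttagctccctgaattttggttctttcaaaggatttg
Ctsg, chr14:56102525-56102824, minus strand: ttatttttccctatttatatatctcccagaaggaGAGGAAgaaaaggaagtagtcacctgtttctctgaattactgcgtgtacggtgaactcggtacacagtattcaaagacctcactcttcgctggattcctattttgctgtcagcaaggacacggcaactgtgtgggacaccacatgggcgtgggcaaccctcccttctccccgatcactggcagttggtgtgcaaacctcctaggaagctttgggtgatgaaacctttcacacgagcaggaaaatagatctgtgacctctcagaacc
Ms4a3, chr19:11640802-11641101, minus strand: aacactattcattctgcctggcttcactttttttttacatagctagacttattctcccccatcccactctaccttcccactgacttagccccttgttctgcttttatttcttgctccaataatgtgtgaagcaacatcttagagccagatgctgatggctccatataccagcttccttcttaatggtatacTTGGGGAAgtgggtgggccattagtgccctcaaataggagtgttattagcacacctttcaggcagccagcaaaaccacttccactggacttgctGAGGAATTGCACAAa
GAGGAA occurred in the promoters of 5 of 5 azurophil genes, beside 28.3% of all 32851 promoters. In Elane and Prtn3 it lay at -85 and -95, counted in bases from the start as 0, in Ctsg at -216, in Ms4a3 at 35 and in Mpo at -247 and again at -224. It occurred in 0 of the 3 factor genes in the table, Gfi1, Cebpa and Cebpb. TTNNGNAA occurred in Ms4a3, where the match at 41 follows directly on the end of GAGGAA, and in 1 of the 2 promoters listed for Gfi1, beside 40.7% of all promoters. A match is a description of the letters and no evidence of binding. By GENCODE M21 on GRCm38, Elane (chr10:79886247-79888215, plus strand) begins 3072 bases after the end of Prtn3 (chr10:79874476-79883174, plus strand), so the pair are neighbors in the same direction. The printed Prtn3 promoter lies wholly inside this GENCODE interval of Prtn3, so the RefSeq and GENCODE starts of the gene differ. The RefSeq starts of Elane and Mpo also lie after their GENCODE starts, and the positions above are counted from the RefSeq starts. Mpo lies at chr11:87793581-87804413, Ctsg at chr14:56099881-56102574, Cebpe at chr14:54710360-54712174, Ms4a3 at chr19:11629496-11640851, Gfi1 at chr5:107716657-107726036, Cebpa at chr7:35119293-35121928, Cebpb at chr2:167688915-167690418 and Spi1 at chr2:91082390-91115756, each annotated as protein coding.

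The libraries held 41239842 to 95852254 UMIs, a UMI being 1 captured RNA molecule, and 3832 control and 4604 GC cells of trabecular bone and 6714 control and 6890 GC cells of callus were kept. Pairs of libraries shared 6 to 11 cell barcodes. Cells were clustered without the 10 genes and without the 2 partner lists used below, and clusters were named from marker genes as X-like cells. In trabecular bone these were hematopoietic stem and progenitor-like cells (41 control and 51 GC cells), early granulocyte-monocyte progenitor-like cells (117 and 172), immature neutrophil-like cells (700 and 901, with specific-granule genes such as Ltf and Camp) and mature neutrophil-like cells (1613 and 2029). A cluster of immature neutrophil-like cells (212 and 179) and a cluster of monocyte-like cells (110 and 143) that also carried at least 7 of the 10 early progenitor markers are called early-marker neutrophils and early-marker monocytes. Mast cell or basophil-like cells (29 and 42) also carried 9 of the 10 early progenitor markers and kept their name. The suffix is left out below. Levels are in CPM, the UMIs of the gene per 1000000 UMIs of all genes in the class.

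The azurophil genes were concentrated in the early progenitors of trabecular bone in both treatments. Elane stood at 12420 CPM in control and 11383 in GC early progenitors, at 2199 and 3015 in early-marker neutrophils, at 33.4 and 44.2 in immature neutrophils and at 36.4 and 50.1 in mature neutrophils. The level thus dropped at each step up to the immature neutrophils in both libraries, and no further drop was seen after that. The early progenitors made up 3.05% of the control cells (2.53 to 3.65) and 3.74% of the GC cells (3.21 to 4.32), yet held 74.6% and 76.2% of all Elane UMIs of the kept cells. They held 78.9% and 81.2% of the Mpo UMIs, 71.6% and 74.8% of Prtn3, 79.3% and 80.2% of Ctsg and 65.6% and 72.5% of Ms4a3. The largest share of another class was 22.5%, that of Ms4a3 in the control early-marker neutrophils.

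**Figure D1:**
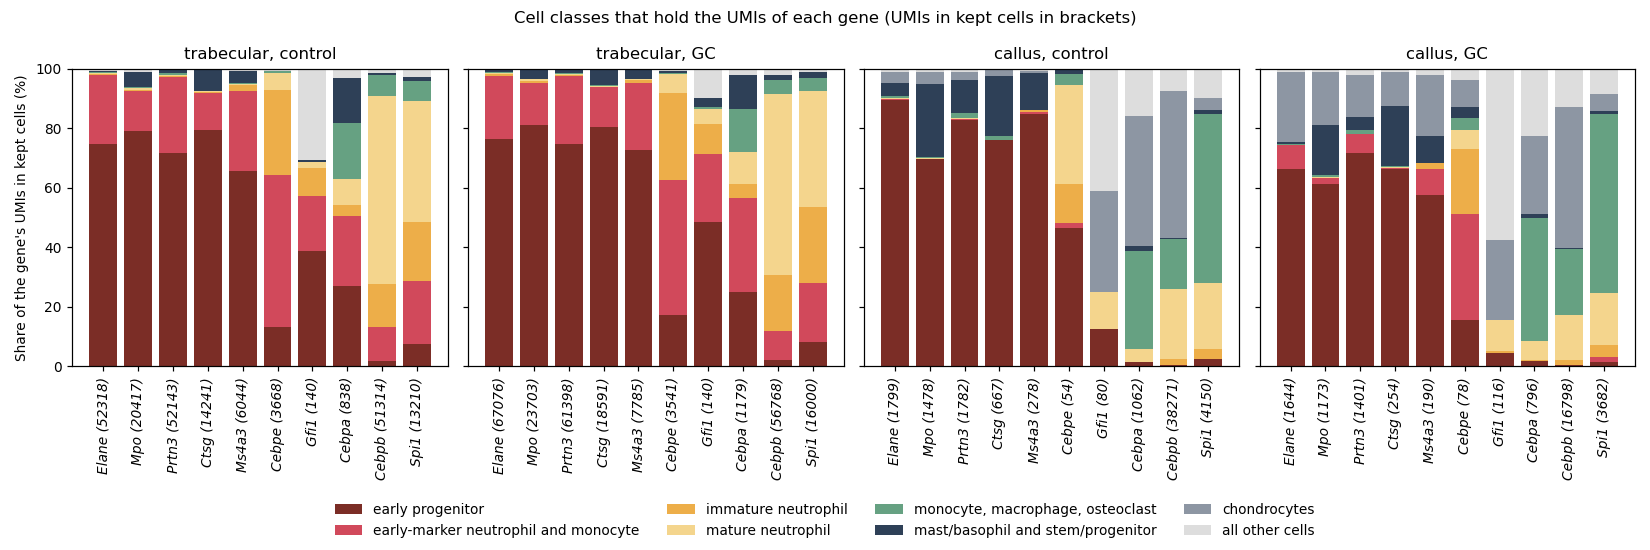
Share of the UMIs of each gene (vertical axis, percent of its UMIs in kept cells) by cell class, as stacked bars, in each of the 4 libraries, with the number of UMIs in brackets. In trabecular bone the early progenitors hold 65.6% to 81.2% of the UMIs of the 5 azurophil genes, whereas mature neutrophils hold 63.1% (control) and 60.8% (GC) of the Cebpb UMIs.

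The 5 azurophil genes were present in the same cells. After each cell had been thinned to 1000 UMIs, so that depth did not set the share, 92.2% of the early progenitors had a UMI of at least 3 of the 5 genes in both libraries (106 of 115 control cells and 154 of 167 GC cells). All 5 were detected in 60% (50.4 to 69.0) of the control and 59.9% (52.0 to 67.4) of the GC cells. Elane alone was detected in 89.6% of control and 90.4% of GC early progenitors after thinning, and in 94.0% and 97.7% before it. Levels still varied between the cells of the class: the middle 50% of control cells ran from 3929 to 19355 CPM of Elane with a median of 12638, and that of the GC cells from 2437 to 19182 with a median of 10442. Mpo was more even, with the middle 50% of cells between 3330 and 6402 in control and between 2880 and 5724 in GC.

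Elane UMIs were also found in trabecular cells that should lack the transcript and in near-empty droplets, which hold free RNA. Droplets with fewer than 100 UMIs held Elane at 665 CPM in control and 637 in GC trabecular bone, and at 12.6 in control callus. Erythroblasts, which should not transcribe the gene, had 32.7 and 48.5 CPM of Elane, close to the 36.4 and 50.1 of mature neutrophils. A UMI of Elane was found in 3.66% of control and 4.75% of GC erythroblasts after thinning (22.8% and 25.4% before, at a median of 6372 and 5880 UMIs per cell) and in 3.45% and 5.38% of mature neutrophils (16.2% and 18.4% before, at 4822 and 3685). The Elane UMIs of mature and immature neutrophils in trabecular bone therefore stand at the level of background and are not read as expression. In early-marker neutrophils the share was 25.9% (20.2 to 32.4) in control and 31.3% (24.6 to 38.6) in GC, above that background.

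**Figure D2:**
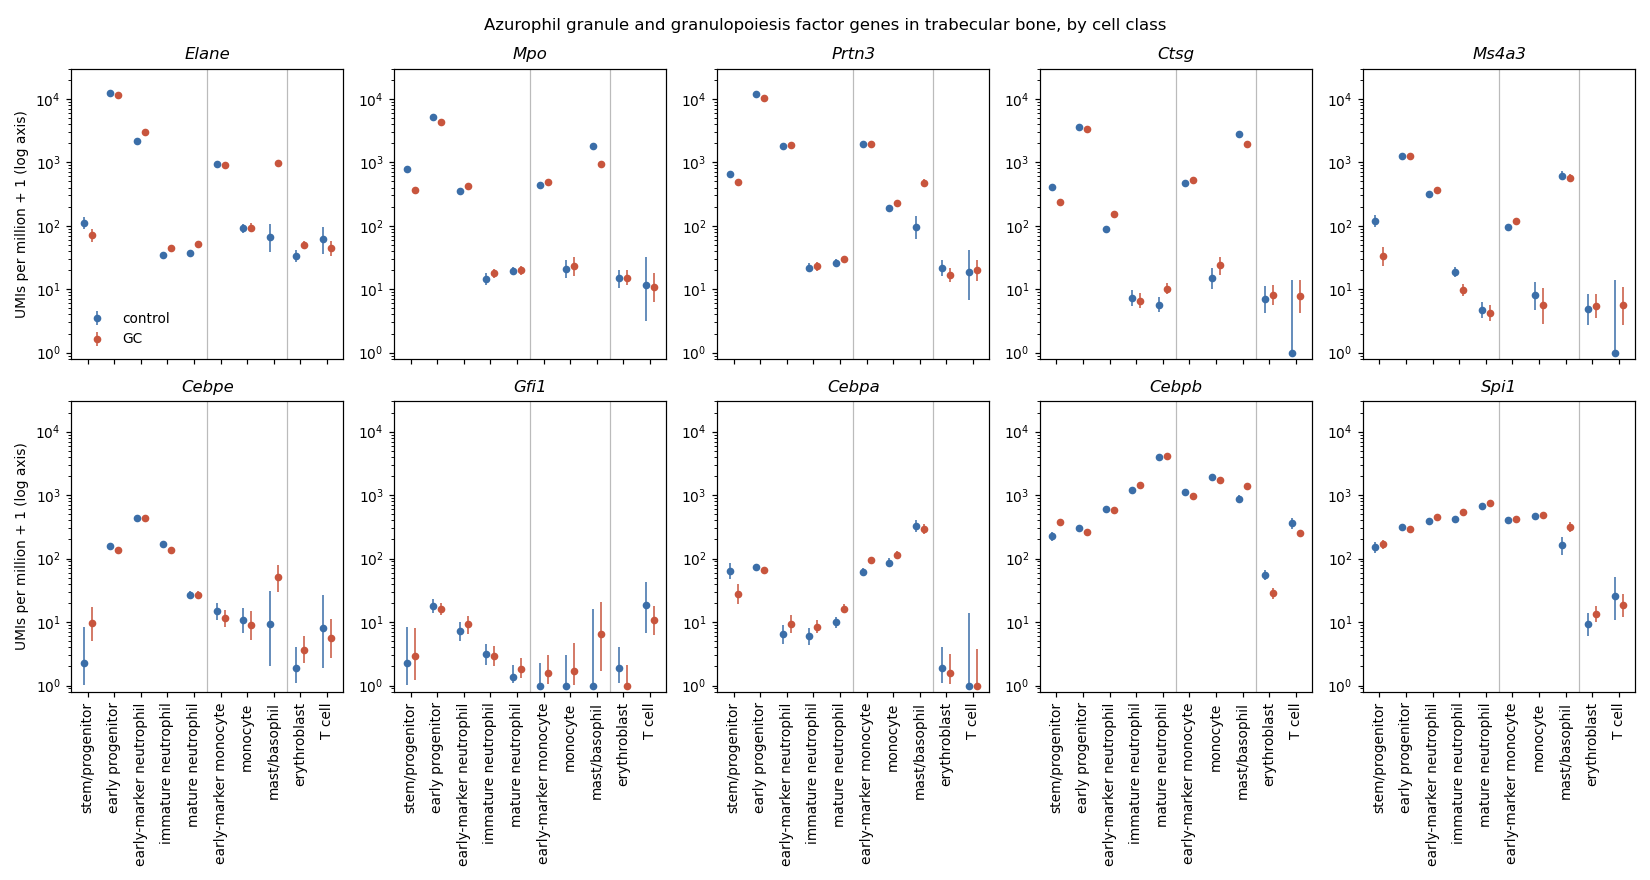
CPM plus 1 (log axis) of the 10 genes by cell class of trabecular bone, control and GC libraries side by side, with 95% counting intervals. The 5 azurophil genes peak in the early progenitors, at 12420 and 11383 for Elane, Cebpe peaks in the early-marker neutrophils, at 432 and 429, and Cebpb in the mature neutrophils, at 4008 and 4092.

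The factor genes followed other orders. Cebpe stood at 155 CPM in control and 135 in GC early progenitors, at 432 and 429 in early-marker neutrophils, and at 169 and 138 in immature and 25.9 and 26.1 in mature neutrophils. Its highest level thus came after that of the azurophil genes, in the cells that also carried Ltf and Camp. Cebpb instead rose at each step, from 303 and 264 in early progenitors through 596 and 576 in early-marker and 1215 and 1428 in immature neutrophils. It reached 4008 (3964 to 4052) and 4092 (4049 to 4135) in mature neutrophils. Spi1 varied less along the series, with 312 and 292 in early progenitors, 386 and 447 in early-marker neutrophils, 417 and 548 in immature and 669 and 738 in mature neutrophils. Cebpa was highest in mast cells or basophils, which also carried 9 of the 10 early progenitor markers, with 326 and 294. It stood at 72.2 and 65.2 in early progenitors, 85.1 and 114 in monocytes and 8.91 and 15.2 in mature neutrophils. In early progenitors Gfi1 reached only 54 and 68 UMIs, or 17.2 and 15.1 CPM, and a UMI was found in 1.74% and 1.80% of the thinned cells, a depth at which little can be said of it.

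The proportions of the azurophil mRNAs differed between classes. The UMIs of Ctsg came to 0.290 of those of Elane in control and 0.292 in GC early progenitors, to 0.0405 (0.0364 to 0.0449) and 0.0514 (0.0472 to 0.0559) in early-marker neutrophils, and to 0.505 and 0.592 in early-marker monocytes. Prtn3 came to 0.957 and 0.899 of Elane in early progenitors, 0.815 and 0.615 in early-marker neutrophils and 2.06 and 2.18 in early-marker monocytes. In stem and progenitor cells, Mpo, Prtn3 and Ctsg each exceeded Elane in UMIs, with 601, 507 and 311 against 85 in control and 373, 498 and 241 against 72 in GC. Most control Mpo UMIs of this class lay in few cells, as given below. Thinned cells of this class with at least 3 of the 5 azurophil genes numbered 4 of 41 in control and 2 of 51 in GC. Mast cells or basophils carried 681 Ctsg UMIs against 16 of Elane in control (ratio 42.6) and 718 against 352 in GC (2.04), a gap between treatments larger than most of those between classes, and 310 of the 352 Elane UMIs lay in 1 cell.

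Likeness was taken over the 65 pairs of a class and a library with at least 15 cells. It is a description, since classes share libraries, depth and free RNA. Elane was most alike to Prtn3 among the other 9 genes (Pearson r of log2 levels 0.957) and Mpo to Ctsg (0.963). In control erythroblasts Elane stood at 32.7 CPM in trabecular bone and 1.87 in callus, and the part of free RNA in r was not tested. Elane and Cebpe had r = 0.734, and Elane and Cebpb r = 0.241. Outside the 10 genes, the most alike to Elane were Prss57, a further azurophil serine protease (0.826), 1700020L24Rik (0.824), Fcnb, a ficolin of immature granulocytes (0.787), Serpinb1a, an inhibitor of the granule proteases (0.774), and Chst13 (0.766). The most alike to Cebpe were Fcnb (0.909), 4930438A08Rik (0.861), Ltb4r1, a leukotriene B4 receptor (0.855), Trem3 (0.850) and Abca13 (0.848). Fcnb is among the early progenitor markers that named the classes, so its likeness to Elane and Cebpe is in part built in. To Cebpb they were Cd14, a coreceptor for lipopolysaccharide (0.871), Mcl1, a survival factor of neutrophils (0.848), Clec4e (0.840), Lst1 (0.837) and Cd300lb (0.833).

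In early progenitors of trabecular bone, the GC library differed little from the control library. Mpo stood at 5126 in control and 4285 CPM in GC (ratio 0.836, 0.819 to 0.854), Prtn3 at 11886 and 10230 (0.861, 0.849 to 0.873) and Ctsg at 3596 and 3322 (0.924, 0.902 to 0.947). Ms4a3 stood at 1261 and 1256 (0.996, 0.957 to 1.04). Each of the 10 genes was lower in GC, by 0.01 to 0.26 on the log2 scale with 5 CPM added to both levels, the scale of all log2 ratios below. Their median was -0.14, beside a median of 0.02 over all genes, and 0 of 10 passed 2-fold, beside 0.466% of all genes tested. These small ratios did not all keep their sign, since 6 of the 10 were above 0 under at least 1 alternative. Elane stood at 0.12 and Ctsg at 0.14 when the members and partners were kept among the clustering genes, Ms4a3 at 0.20, Cebpa at 0.18 and Cebpe at 0.22 in cells thinned to 1000 UMIs, and Gfi1 at 0.32 as a mean over cells. Among 14 other azurophil granule genes, 0 of 14 passed 2-fold (median -0.12). Lyz2, lysozyme, had the lowest log2 ratio (296 and 198 CPM, -0.57), Man2b1 was among the 3 lowest (79.9 and 57.9, -0.43), and the highest were those of Aga (0.15), Serpinb1a (0.17) and Ap3b1 (0.23). Of 19 further granulopoiesis factor genes, 16 had at least 50 UMIs over both libraries and 0 passed 2-fold. Egr1 was the lowest, at 21.3 and 12.7 (-0.57), and Klf4, a monocyte factor, the highest, at 62.4 and 78.4 (0.31). Hemoglobin UMIs of the class stood at 610 and 2844 CPM for 8 of 8 genes. Their part in these ratios was not tested beyond an alternative that left hemoglobin out of the total.

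In early-marker neutrophils, 8 of the 10 genes were higher in GC and 0 passed 2-fold, beside 0.465% of all genes. Ctsg stood at 89.0 and 155 (log2 ratio 0.77) and Elane at 2199 and 3015 (0.45), while Prtn3 stood at 1793 and 1853 (0.05). The direction of the azurophil genes turned with the clustering: with the members and partners kept among the clustering genes, the class held only 24 control and 19 GC cells, and Ctsg stood at -1.72, Ms4a3 at -1.41, Prtn3 at -1.32, Elane at -1.20 and Mpo at -1.05, of which Elane and Prtn3 had at least 50 UMIs over both libraries. The cells of this class differed widely, since the median GC cell had 91.1 CPM of Elane, the upper quartile 1316, and 3 of the 179 cells held 25.2% of the UMIs. Cebpe was close in both, at 432 and 429 (-0.01). Hemoglobin genes stood at 1372 and 3353 CPM in the class (8 of 8). Their part in these ratios was not tested beyond leaving hemoglobin out of the total.

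In immature neutrophils 0 of the 9 genes over the minimum passed 2-fold, beside 1.24% of all genes. Ms4a3 came nearest, with 17.6 and 8.81 CPM (log2 ratio -0.71), and Cebpe stood at 169 and 138 (-0.29). Cebpb (1215 and 1428, 0.23) and Spi1 (417 and 548, 0.39) were higher in GC. The control cells lay mostly in clusters 8 and 4 and the GC cells in clusters 3 and 4. In mature neutrophils, with control cells mostly in clusters 0 and 2 and GC cells in clusters 1, 5 and 6, 0 of 9 genes passed 2-fold, beside 3.97% of all genes. Cebpb was nearly equal, at 4008 and 4092 (ratio 1.02, 1.01 to 1.04), against a median log2 ratio of 0.26 over all genes in this class, relative to which Cebpb stood at -0.23. Cebpa stood at 8.91 and 15.2 (0.54), and the azurophil genes stayed at the background given above. Of 13 granulopoiesis factor genes over the minimum, Id2 (91.4 and 221, 1.23) and Cebpg (17.0 and 39.3, 1.01) were over 2-fold higher in GC, and Zeb2 was the lowest (144 and 77.8, -0.85).

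**Figure D3:**
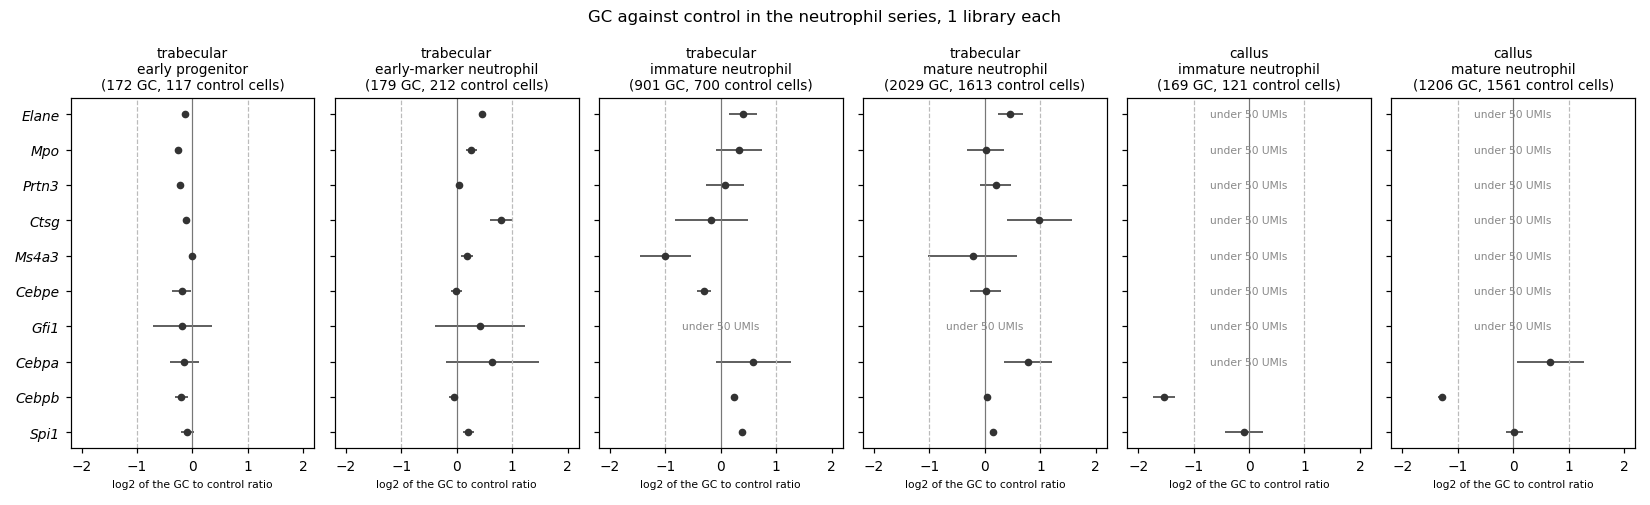
Log2 of the GC to control ratio, with no constant added, of the 10 genes (rows) in classes of the neutrophil series, with exact 95% counting intervals. Genes with fewer than 50 UMIs over both libraries are marked as such. In trabecular early progenitors every point lies near or just left of 0, and the points farthest to the left are those of Cebpb in callus immature and mature neutrophils, at ratios of 0.346 and 0.409.

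In the smaller classes of trabecular bone the ratios rested on few cells. In stem and progenitor cells Mpo (780 and 362, log2 ratio -1.10), Ms4a3 (119 and 32.0, -1.75) and Cebpa (63.6 and 27.2, -1.09) were over 2-fold lower in GC, 3 of 8 genes, beside 1.35% of all genes. Of the Ms4a3 UMIs of the control library, 77.2% lay in 3 of 41 cells, and of the Mpo UMIs 55.4%. With cells thinned to 1000 UMIs, where none of the genes kept 50 UMIs, the log2 ratio of Mpo turned to 0.27 and that of Cebpa stood at -0.26. Without the 3 cells with the most UMIs of the gene in each library, Ms4a3 stood at -0.32, so each of the 3 genes fell under 2-fold in at least 1 alternative. Hemoglobin genes stood at 8777 and 4967 CPM in the class (8 of 8), and their part was not tested beyond leaving hemoglobin out of the total. In early-marker monocytes 0 of 9 genes passed 2-fold, beside 0.57% of all genes, with Cebpa the highest (59.9 and 94.4, 0.62), and in monocytes 0 of 7, beside 1.57%. In mast cells or basophils (29 and 42 cells), Elane (66 and 966, 3.77) and Prtn3 (94.9 and 472, 2.26) were over 2-fold higher in GC, 2 of 8 genes, beside 3.83% of all genes. A single GC cell held 310 of the 352 Elane UMIs and 1 held 128 of the 172 Prtn3 UMIs, so those ratios describe 1 cell and not the class. Without the 3 cells with the most UMIs of the gene in each library, Elane stood at 0.90 and Prtn3 at 0.15. Hemoglobin genes stood at 1250 CPM in control (5 of 8 detected) and 11699 in GC (8 of 8). Their part was not tested beyond leaving hemoglobin out of the total.

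The callus held few cells that express the azurophil genes, and the Elane UMIs of GC chondrocytes are given at the end. Sub-cluster 18.2, with 10 of 10 early progenitor markers but none of them among its 10 leading genes, held 15 control and 10 GC cells, and these carried 89.6% (control) and 66.1% (GC) of the Elane UMIs of the kept callus cells. Elane stood at 6349 (6043 to 6667) and 5842 CPM in them, Mpo at 4056.7 and 3859, Ctsg at 1993 and 903 and Ms4a3 at 930 and 586. The Prtn3 to Elane ratio was 0.913 and 0.925 in these cells, near the 0.957 and 0.899 of trabecular early progenitors. Not all pairs were as alike. Mpo to Elane came to 0.639 and 0.661, against 0.413 and 0.376 in trabecular early progenitors. Ctsg to Elane came to 0.314 in control, near 0.290, but to 0.155 (0.131 to 0.182) in GC, against 0.292. Ms4a3 to Elane came to 0.146 (0.127 to 0.168) in control, against 0.102. In GC its interval (0.0816 to 0.122) held the trabecular value of 0.1104. In callus mature neutrophils (1561 control and 1206 GC cells) Elane, Mpo, Prtn3 and Ctsg had 0 to 4 UMIs each in a library, and Ms4a3 had 0 UMIs in both, which allows up to 1.47 and 2.15 CPM.

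In callus neutrophils Cebpb was much lower in the GC library, whereas Spi1 was not. In mature neutrophils Cebpb stood at 4442 (4351 to 4534) CPM in control and 1815 (1745 to 1887) in GC, a ratio of 0.409 (0.391 to 0.427) and a log2 ratio of -1.29. The median cell had 4102 in control and 1571 in GC, and the middle 50% of cells ran from 2625 to 5937 and from 761 to 2695, so that these ranges overlap only at their edges. The share of thinned cells with a Cebpb UMI was 96.9% (95.8 to 97.8) in control and 75.9% (72.8 to 78.7) in GC (97.6% and 79.5% before thinning), beside 5.36% and 0% in erythroblasts, the latter 0 of 43 cells, which allows up to 8.22%. Spi1 stood at 451 and 458 (ratio 1.02, 0.917 to 1.12) and Cebpa at 23.0 and 36.6 (1.59, 1.05 to 2.42). Thus 1 of 3 genes over the minimum passed 2-fold, beside 7.97% of all genes tested, and 61 of 4805 genes had a lower ratio than Cebpb.

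The control cells lay mostly in cluster 3 (1032 cells, against 34 of GC) and the GC cells in cluster 0 (1172 cells, against 529 of control). Within cluster 0, Cebpb stood at 4068 and 1808 (ratio 0.445, 0.421 to 0.470), and within cluster 3 at 4627 and 2040 (0.441, 0.349 to 0.550). The difference was thus present in both clusters. Summed chondrocyte markers in mature neutrophils stood at 4938 in control and 2346 CPM in GC (10 of 10 genes detected in both), hemoglobin genes at 881 and 4844 (8 of 8) and the median depth at 1269 and 1133 UMIs per cell. Their part in the Cebpb difference was not tested.

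The same direction was seen in callus immature neutrophils (cluster 14, 121 and 169 cells), where Cebpb stood at 2114 and 732 CPM (ratio 0.346, 0.301 to 0.397, log2 ratio -1.52), and Spi1 at 407 and 382 (0.939, 0.740 to 1.19). There 1 of 2 genes over the minimum passed 2-fold, beside 12.3% of all genes. The summed chondrocyte markers stood at 3205 and 1206 in these cells, and hemoglobin genes at 78.4 (4 of 8 detected) and 285 (6 of 8). Their part was not tested, apart from leaving hemoglobin out of the total. In cluster 6, which carried 8 of 9 monocyte markers but more neutrophil than monocyte markers among its leading genes, Cebpb stood at 2316 and 1630 (0.704, 0.672 to 0.736), and 0 of 3 genes passed 2-fold, beside 4.70%. In callus macrophages (88 and 93 cells) Cebpb was close in both, at 958 and 922 (0.963, 0.853 to 1.09), and 0 of 3 genes passed, beside 4.78%. In T cells Cebpb stood at 111 and 50.1 (0.450, 0.322 to 0.625), the only gene over the minimum, beside 2.99% of all genes past 2-fold. Its log2 ratio in T cells was -1.08, and -0.73 without the 3 cells with the most Cebpb UMIs in each library. In B cells Cebpb stood at 79.0 and 64.0 (0.810, 0.553 to 1.17). Callus erythroblasts held Cebpb at 91.6 CPM in control, with a log2 ratio of -1.67, beside 16.8% of all genes past 2-fold. Droplets with fewer than 100 UMIs held it at 368 CPM in control callus and are not listed for GC callus. The control Cebpb values of T and B cells thus stand near that of erythroblasts. For GC callus the free RNA was not measured, and the T and B cell values of neither library are read as expression. Spi1, which B cells use in their own development, stood at 67.0 and 11.9 in B cells (0.178, 0.0743 to 0.366, from 84 and 8 UMIs), 1 of 2 genes past 2-fold, beside 5.01%.

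**Figure D4:**
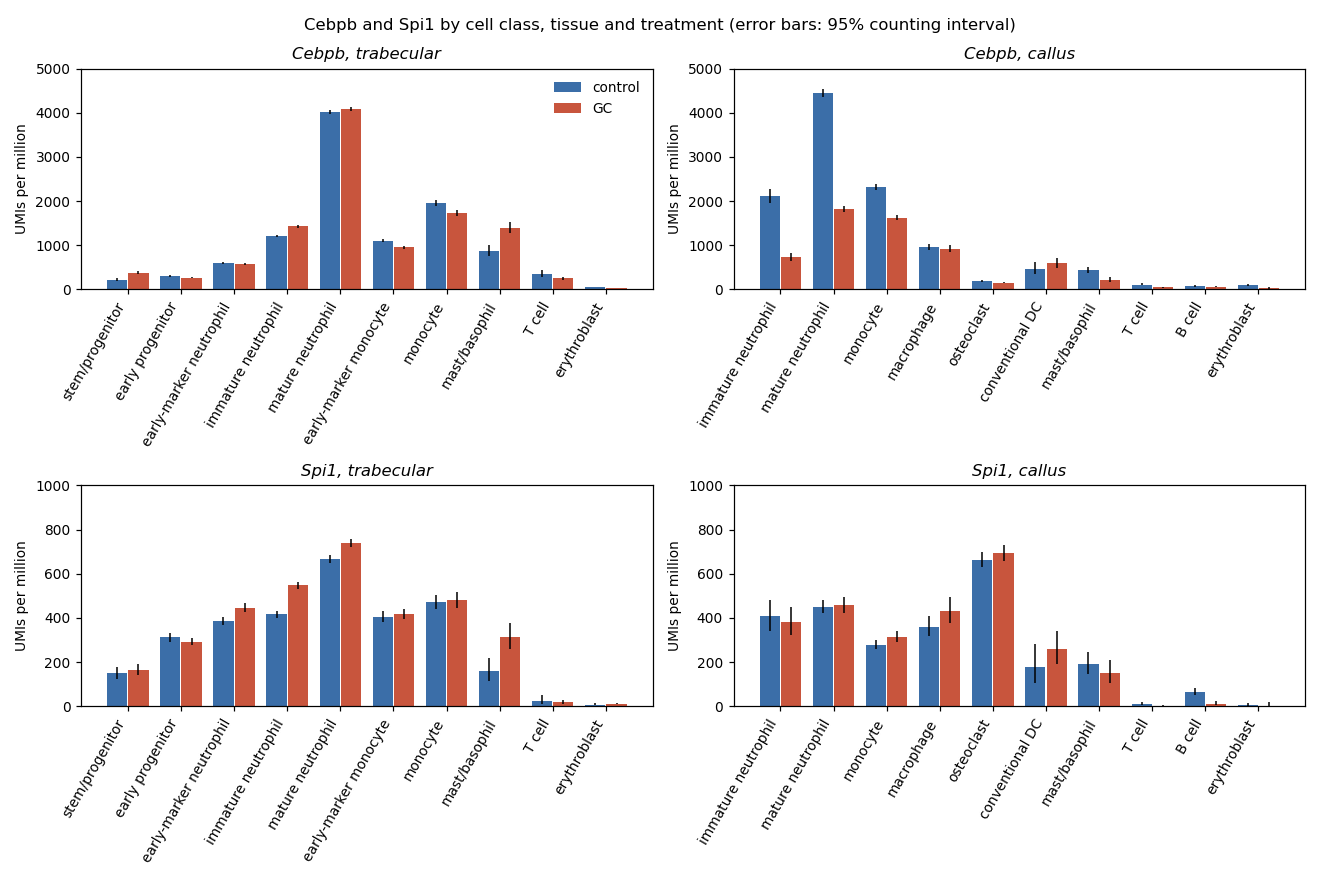
CPM (bars, from 0, with 95% counting intervals) of Cebpb and Spi1 by cell class in trabecular bone and callus, control and GC side by side. In callus mature neutrophils Cebpb stands at 4442 in control and 1815 in GC, while in trabecular mature neutrophils it stands at 4008 and 4092, and Spi1 is close between the treatments in both.

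Other factor genes differed between the callus libraries beside Cebpb. Of the 13 granulopoiesis factor genes over the minimum in mature neutrophils, 2 passed 2-fold, beside the 7.97% of all genes, both lower in GC: Id1, an inhibitor of helix-loop-helix factors (482 and 48.1 CPM, log2 ratio -3.20), and Egr1, an immediate-early gene (1628 and 382, -2.08). Their median was -0.18, beside 0.00 over all genes, and the highest were Zeb2 (727 and 1285, 0.82) and Cebpg (31.8 and 57.4, 0.76). In immature neutrophils the same pair passed 2-fold among 9 genes over the minimum, beside 12.3% of all genes, Id1 at 241 and 62.0 (-1.88) and Egr1 at 241 and 81.9 (-1.50). Among 9 azurophil granule genes over the minimum in mature neutrophils, 2 lysosomal enzyme genes were over 2-fold higher in GC, beside the same 7.97%, Hexa (36.7 and 101, 1.35) and Gusb (9.29 and 24.4, 1.04), and the lowest was Srgn, the granule proteoglycan serglycin (14821 and 10156, -0.55).

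Callus mast cells or basophils (31 and 20 cells) had lower levels of each of the 7 genes over the minimum in GC, and 3 passed 2-fold, beside 8.99% of all genes: Elane (230 and 44.0, log2 ratio -2.26), Prtn3 (601 and 248, -1.26) and Cebpb (439 and 216, -1.004). A single control cell held 53 of the 75 Elane UMIs. Of the 10 early progenitor markers, sub-cluster 18.4 carried 3 and sub-cluster 18.1 carried 8. Sub-cluster 18.4 gave 16 control and 2 GC cells to this class and sub-cluster 18.1 gave 15 and 18. Cebpb stood at 2178 CPM in the control cells of the first and at 176 and 203 in the second, so the lower Cebpb level of the class in GC was not present within sub-cluster 18.1. Directions also changed with the depth. In cells thinned to 1000 UMIs, where 1 of the 7 genes kept 50 UMIs, Elane stood at -0.27, and Ctsg (0.03), Mpo (0.26) and Ms4a3 (0.63) were higher in GC. Prtn3 stood at -0.31 without the 3 cells with the most Prtn3 UMIs in each library. Summed chondrocyte markers stood at 2751 in control (10 of 10 detected) and 564 CPM in GC (9 of 10). Hemoglobin genes stood at 3456 (8 of 8) and 817 (7 of 8) and the median depth at 4146 and 9980.5 UMIs per cell. Their part was not tested, apart from the thinning above and leaving hemoglobin out of the total.

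Between the tissues, the neutrophils differed over 2-fold in Cebpe in both treatments. Mature cells also differed over 2-fold in Cebpb with GC and, in both treatments, in Cebpa. Cebpa was higher in callus by little more than 2-fold. Its control log2 ratio of callus to trabecular bone was 1.01, beside a median of 0.51 over all genes. In control mature neutrophils Elane stood at 1.47 CPM in callus and 36.4 in trabecular bone, Cebpe at 8.80 and 25.9, Cebpa at 23.0 and 8.91, Spi1 at 451 and 669 and Cebpb at 4442 and 4008. Past 2-fold were 5 of 7 genes, beside 41.2% of all genes tested, with Elane, Mpo, Prtn3 and Cebpe lower and Cebpa higher in callus. The trabecular values of Elane, Mpo and Prtn3 in this count (36.4, 18.6 and 24.99 CPM) stood near those of erythroblasts (32.7, 13.8 and 20.7) and are not read as a difference in expression. In GC mature neutrophils Cebpb stood at 1815 in callus and 4092 in trabecular bone (ratio 0.444, 0.426 to 0.462), and 7 of 8 genes passed 2-fold, beside 39.4%, with Elane, Mpo, Prtn3 and Ctsg, again at background in trabecular bone, among them. In immature neutrophils Cebpe stood at 21.1 in callus and 169 in trabecular bone with control, and at 42.2 and 138 with GC, and 5 of 7 (beside 34.8%) and 4 of 8 genes (beside 37.8%) passed, all lower in callus and 3 of them in each treatment, Elane, Mpo and Prtn3, at background in trabecular bone. In mast cells or basophils 5 of 8 genes passed in control, beside 29.4%, and 6 of 8 in GC, beside 36.5%, with Ctsg at 411 against 2809 and at 204 against 1970 CPM. Elane and Prtn3 were higher in callus in control, at 230 against 66 (log2 ratio of callus to trabecular bone 1.73) and 601 against 94.9 (2.60), and lower in GC, at 44.0 against 966 (-4.31) and 248 against 472 (-0.91, under 2-fold). The free Elane RNA of trabecular bone, 665 and 637 CPM in near-empty droplets, bears on the Elane, Mpo and Prtn3 values of neutrophils there, and tissue, fracture and library cannot be told apart.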

How the data were processed

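The authors made the deposited count matrices with Cell Ranger (version 4 per the file headers and 5.0.1 per the submitters' processing notes, which also name Seurat 3.2.0 and mm10), and each deposited value is a UMI count, not normalized. Their cell labels were not used here, and classes rebuilt here may hold other cells than theirs. The 10 genes and the lists were chosen with earlier results of these data known, and the naming steps for early-marker classes were set after the clusters had been seen.

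Barcodes over 10% of the 99th percentile of the top 3000 were called, and those of at least 500 UMIs that departed from the profile of barcodes ranked 45001 to 90000 were added (10000 simulations, adjusted p of 0.01). The GC callus matrix lists only barcodes of at least 500 UMIs, and all 7762 were taken. Cells under 200 genes or over 10% mitochondrial UMIs and doublets (0.8% per 1000 cells) were removed. Each tissue was clustered on 2000 variable genes, 30 components, 15 neighbors and Leiden resolution 1.

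Levels are summed UMIs as CPM with exact Poisson intervals, ratios have exact conditional intervals and shares Clopper-Pearson intervals, at 95%. Log2 ratios added 5 CPM, asked for 50 UMIs over both libraries, and classes needed 15 cells in each. Named genes are the 10 members, the 3 highest and 3 lowest of each partner list in a class and the 5 genes most alike to Elane, Cebpe and Cebpb. One gene named by this rule is not reported here. Alternatives covered calling, filters, doublets, clustering, depth, denominators, scaling and free RNA. The scripts, tested on simulated data, used matplotlib 3.10.9, leidenalg 0.10.2, igraph 0.11.9, scikit-learn 1.9.0, pandas 2.3.3, scipy 1.17.1 and numpy 2.4.6 under Python 3.11.15.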

Additional observations from a re-analysis of the deposited data

Results flagged for a closer look

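In 3 classes a gene was higher in the GC library of one tissue and lower in that of the other. With 1 library per group, the difference between the tissues was not tested. The log2 ratio of Cebpb (GC to control) was -1.29 in callus and 0.0300 in trabecular mature neutrophils, and -1.52 and 0.23 in immature neutrophils. The trabecular value of mature neutrophils lay under the median of 0.26 over all genes and ran from -0.23 to 0.32 over the alternatives, so its direction is not settled. In mast cells or basophils Cebpb stood at -1.004 in callus, a difference not present within sub-cluster 18.1, and at 0.68 in trabecular bone. There Elane stood at -2.26 in callus and 3.77 in trabecular bone, and Prtn3 at -1.26 and 2.26, and for both genes most of the UMIs behind the higher trabecular value lay in 1 cell.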

How the results depend on the processing

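No paired analysis was possible because each group is 1 library, and for the same reason no library could be left out. Of 12 log2 ratios past 2-fold, 172 of 173 alternative values kept their direction and 148 stayed past 2-fold. The exception was Mpo in trabecular stem and progenitor cells, at 0.27 with cells thinned to 1000 UMIs, and the cause was not tested. Cebpb in callus mature neutrophils stood at -1.36 with no doublets removed and at -1.17 in cluster 0 alone, the latter chosen after seeing the data. With no doublets removed that class held 1400 control but only 93 GC cells, against 1206 GC cells as reported. The early progenitor share of 3.05% (control) and 3.74% (GC) came to 4.25% and 5.42% with the UMI cutoff only, which leaves out smaller cells, and to 2.01% and 2.48% at Leiden resolution 2, and the GC share to 3.08% with the members and partners kept among the variable genes. The Elane UMIs held by early progenitors came to 74.1% and 74.6% with no doublets removed. Ratios under 2-fold turned more often, in 6 of 10 genes of trabecular early progenitors and 9 of 10 of early-marker neutrophils. Counts of members past the fold changed in 11 of 15 classes. In early-marker neutrophils 0 became 1 with no doublets removed, 2 with the members and partners kept among the variable genes and 1 at 1.5-fold. In immature neutrophils of trabecular bone 0 became 1 with the free RNA profile taken off and 1 at 1.5-fold, and in mature neutrophils there 1 with cells thinned to 1000 UMIs and 1 with that profile taken off. In callus mature neutrophils 1 became 2 with no doublets removed, where the class held only 93 GC cells. The count ran from 0 to 6 (3 as reported) in stem and progenitor cells, from 0 to 5 in mast cells or basophils of trabecular bone (2) and callus (3), from 0 to 2 in callus T cells (1) and from 0 to 1 in callus B cells (1), trabecular monocytes (0) and early-marker monocytes (0), with 0 in cells thinned to 1000 UMIs, where few genes kept 50 UMIs. Low UMI counts limit Gfi1, also in trabecular early progenitors and early-marker neutrophils, where it passed the minimum. They limit all 5 azurophil genes in callus mature and immature neutrophils, monocytes and macrophages, where none passed the minimum. Elane, Mpo and Prtn3 did pass it in callus mast cells or basophils and in chondrocytes.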

Other observations

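In callus chondrocytes, Elane stood at 0.978 CPM in control and 15.1 in GC, Mpo at 0.978 and 8.09 and Prtn3 at 0.595 and 7.38. Of the 384 Elane UMIs of the GC chondrocytes, 166 lay in cluster 1 (77 control and 1221 GC cells) and 207 in sub-cluster 20.0 (0 control and 64 GC cells), where Elane reached 292 CPM. Sub-cluster 20.0 had the bone genes Ibsp, Col1a1 and Col1a2 among its 10 leading genes beside Elane, Mpo and Prtn3, and none of its chondrocyte markers. Without both clusters, an alternative chosen after seeing the data, Elane stood at 0.986 in control and 0.540 in GC chondrocytes. Empty droplets are not listed for the GC callus library, so its free RNA was not measured.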
